A study of Mus musculus with 4 samples.

Results

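The proteasome is the protease that degrades most short-lived proteins of the cytosol and nucleus after they have been tagged with ubiquitin. Its 20S core is a barrel of stacked alpha and beta rings, and 3 of the beta subunits carry the proteolytic sites. The 19S regulatory particle caps the core, and consists of a base that holds a ring of ATPases and a lid that removes the ubiquitin chain. Cancer cells with a high load of protein synthesis are known for their dependence on it. The genes of this complex were examined in ID8G cells, a mouse ovarian cancer line (ID8) that carries GFP from a retroviral vector, and in GO2 cells derived from them. GO2 cells were obtained by 2 rounds of i.p. injection into female C57BL/6J mice. In each round, CD45-GFP+ cells were sorted from the omental tumors and cultured. Both lines were grown in the same medium, DMEM with 4% FBS, insulin, transferrin and selenite, and the GO2 line is thus a sorted and recultured population, not tumor tissue. Total RNA of each line was hybridized to 2 one-color Agilent arrays, and the sources used here do not say whether the 2 arrays of a line came from separate cultures, so that p-values measure only the spread between these arrays.

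Members were taken by gene symbol, as probes whose RefSeq accession belongs to a gene of the Psma, Psmb, Psmc, Psmd, Psme, Psmf or Psmg series, without the interferon-inducible subunits Psmb8, Psmb9 and Psmb10. This gave 73 probes for 47 genes, of 56605 probes that are not controls. Of these, 71 probes for 46 genes reached signal well above background on the 2 arrays of ID8G cells, of GO2 cells or of both, and were tested, as were 28368 probes in all. Psmb11, the beta subunit of the thymus, was not well above background on any array, and Psma8, an alpha subunit of the testis, was measured in full by neither of its probes. The other 70 probes passed this level on each array, and none of their spots was marked as an outlier or saturated. No probe matched the accession of Psme2, and 2 probes matched that of its retrocopy Psme2b. The naming rule also takes in Psmc3ip and Psme3ip1, which are named after subunits and are not subunits themselves.

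Values are given as the level, which is the log2 signal of a probe minus the 75th percentile of its array, and as the log2 difference, which is the GO2 mean minus the ID8G mean. Because the signal of a probe depends on its sequence, levels are not compared between probes as amounts of RNA. The arrays lay on 1 slide with 1 scan time, and had 27502 to 28841 probes well above background. The keratins Krt8, Krt18 and Krt19 and the mesothelial genes Msln and Wt1 were well above background in both lines, whereas Krt7 and Epcam were not above it on any array. Of the 8 macrophage markers, the leukocyte gene Ptprc and Adgre1, Lyz2, Fcgr1 and Mrc1 were not above background on any array, whereas the brightest probes of Itgam, Csf1r and Cd68 were well above it on all 4 arrays and were not called. The summed linear level of the 8 genes was 20.6 to 23.5 in ID8G cells and 20.7 in GO2 cells. Such sums are carried by their brightest probes and are not amounts of RNA. Most of this one came from the brightest Itgam probe, and the other Itgam probe was well above background on 1 GO2 array alone. Of the 8 fibroblast markers, 4 rose and Dcn fell, while Lum, Thy1 and Fap were not above background on any array. The summed linear level of the 8 was 67.4 to 70.1 in ID8G cells, nearly all of it from Dcn, and 127 to 130 in GO2 cells. Of the 9 epithelial and ovarian surface markers, Krt8, Krt18, Krt19 and Msln fell and Upk3b rose, and their sum was 655 to 662 in ID8G cells and 373 to 376 in GO2 cells. On no array above background were 5 of 6 lymphocyte, 4 of 5 endothelial and 3 of 5 adipocyte markers, and Fabp4 was the single marker of these lists that passed the test by its brightest probe, lower in GO2 cells, where it was not well above background. The part of these markers in the proteasome results was not tested, and in bulk RNA fewer cells of a type and less RNA per cell cannot be told apart.

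Most subunits of the 20S core and of the 19S particle had slightly higher values in GO2 cells than in ID8G cells, relative to all probes. Over the 51 probes of these 31 genes, the median log2 difference was 0.16, where that of all tested probes was -0.02, and 46 of the 51 lay above the median of all tested probes. Scaling the arrays to the spike-in transcripts moved the median of all tested probes to -0.23 and that of these 51 probes to -0.05. The sign against 0 thus turned. This scaling shifts all probes of an array alike, so the distance between these medians, 0.19, could not change with it. The sizes were small, from -0.22 to 0.33, and none of the 51 probes differed by 2-fold. The assembly chaperones, the activators and the genes that only share the name had values on both sides of this median, and the 4 genes called lower, Psmd10, Psma8, Psme1 and Psmc3ip, lay outside the 20S and 19S subunits of most tissues.

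In the limma fit across all probes, 12 of the 71 probes (16.9%) rose in GO2 cells and 5 (7.04%) fell at an adjusted p below 0.05. One of the 5, of Psma8, passed the filter through ID8G cells alone, so that its call rests on GO2 signal that was not well above background. Of all tested probes, 17% rose and 18.9% fell, 35.9% in either direction. The share of proteasome probes called higher was thus that of the array as a whole, and the share called lower was smaller. Under spike-in scaling, 0 of the 71 probes rose and 9 fell, and at an unadjusted p below 0.05 these counts were 0 and 12. Of all tested probes, 8.59% rose and 33.6% fell under this scaling. Among the 51 probes of the 20S and 19S subunits, 10 (19.6%) rose and 0 fell in limma, and at an unadjusted p below 0.05 the counts were 22 and 1, the latter being Psmd8. The share of all tested probes at an unadjusted limma p below 0.05 is not reported here, for any fit. Counts at that cut are therefore not set against the array as a whole. After Benjamini-Hochberg adjustment, the methods' t-test called none of the 51, as it called 0% of all tested probes higher and 0.0106% lower, and 54 of the 71 proteasome probes had no call in limma. Both GO2 arrays lay above both ID8G arrays for 42 of the 71 probes (59.2%) and below them for 13 (18.3%), where the shares over all tested probes were 33.9% and 39.6%. For the 20S and 19S probes these counts were 35 and 4 of 51.

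**Figure D1:**
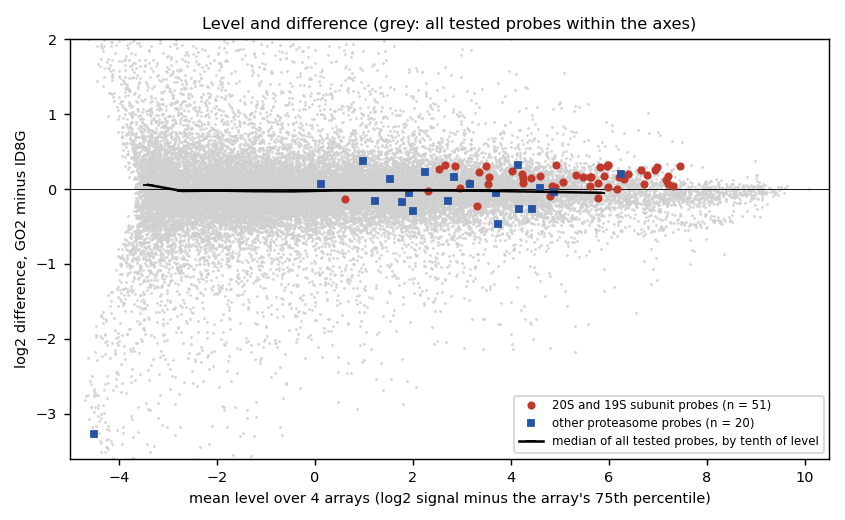
Each point is a probe, with its mean level over the 4 arrays on the horizontal axis and its log2 difference, GO2 minus ID8G, on the vertical axis, for 51 probes of 20S and 19S subunits (red), 20 other proteasome probes (blue) and all tested probes within the axes (grey). The black line joins the medians of all tested probes in 10 bins of level; the red points lie mostly above it, and the blue point at the lower left is Psma8, which was not above background in GO2 cells.

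The spots of these probes were bright, which by itself does not rank transcripts, and 38 of the 71 lay above the 90th percentile of signal over all tested probes. Above that percentile, the median log2 difference over all probes was -0.05 and 39.2% of probes lay above 0. The median of all 71 proteasome probes, the dimmer ones included, was 0.13 under the same scaling. Under spike-in scaling it was -0.079, where that of all tested probes was -0.23. The median of the bright probes under spike-in scaling is not reported here, so -0.079 is not set against -0.05. The part of brightness in these values was not tested. The first array of each line also read higher than the second for most proteasome probes, in 62 of 73 for ID8G and in 65 of 73 for GO2. The median gap between replicates was 0.06 in each line, where that over all tested probes was 0.00 in ID8G and 0.01 in GO2. The gap between the lines was larger than this in each of the 4 pairings of arrays, by a small margin in the last of those given here. The median over the tested proteasome probes was 0.20 for the first GO2 array against the second ID8G array, 0.12 between the second arrays, 0.09 between the first arrays, and 0.07 for the second GO2 array against the first ID8G array.

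In the 20S core, each of the 22 probes for 14 genes had a log2 difference above 0, and 3 passed the test. Under spike-in scaling 3 of the 22 were above 0. All 22 lay above the median of all tested probes, which a shift shared by all probes cannot change. The alpha ring, which gates the entry of the substrate, had 12 probes, which lay between 0.00 and 0.20, and none passed the test. Psma2 had levels of 7.27 and 7.29 in ID8G cells and 7.35 and 7.29 in GO2 cells, with a log2 difference of 0.04 (95% interval -0.11 to 0.18). Psma4 had the largest values of the ring. The brightest of its 4 probes read 6.70 and 6.68 in ID8G cells and 6.95 and 6.80 in GO2 cells, and the log2 differences of its 4 probes lay between 0.15 and 0.20. Both GO2 arrays were above both ID8G arrays for each of the 4 probes, and the adjusted p-values were 0.0502 to 0.145. Psma6 had the lowest log2 difference of the ring, with levels of 6.18 and 6.16 in ID8G cells and 6.20 and 6.14 in GO2 cells, and the arrays overlapped.

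The structural beta subunits held the 3 probes of the core that rose. Psmb2 was measured by 2 probes, and the brighter read 2.78 and 2.62 in ID8G cells and 3.04 and 2.99 in GO2 cells. The arrays of the lines did not overlap, and the log2 differences were 0.31 (adjusted p = 0.0441) and 0.32 (adjusted p = 0.0209). Psmb4 read 6.84 and 6.78 in ID8G cells against 7.10 and 7.04 in GO2 cells, a log2 difference of 0.26 (adjusted p = 0.033), and its dimmer probe gave 0.17 and did not pass. Psmb3 and Psmb1 did not pass the test, with log2 differences of 0.12 and 0.04. The catalytic subunits, which cut the peptide bond, were close to the alpha ring. Psmb5, the chymotrypsin-like subunit, read 4.95 and 4.83 in ID8G cells and 4.98 and 4.87 in GO2 cells, and the arrays overlapped. Psmb7, the trypsin-like subunit, read 4.53 and 4.47 in ID8G cells and 4.75 and 4.59 in GO2 cells, and the log2 difference was 0.17 (95% interval -0.04 to 0.39). The probes of Psmb6, the caspase-like subunit, gave 0.06 and 0.18. None of these 4 probes passed the test.

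**Figure D2:**
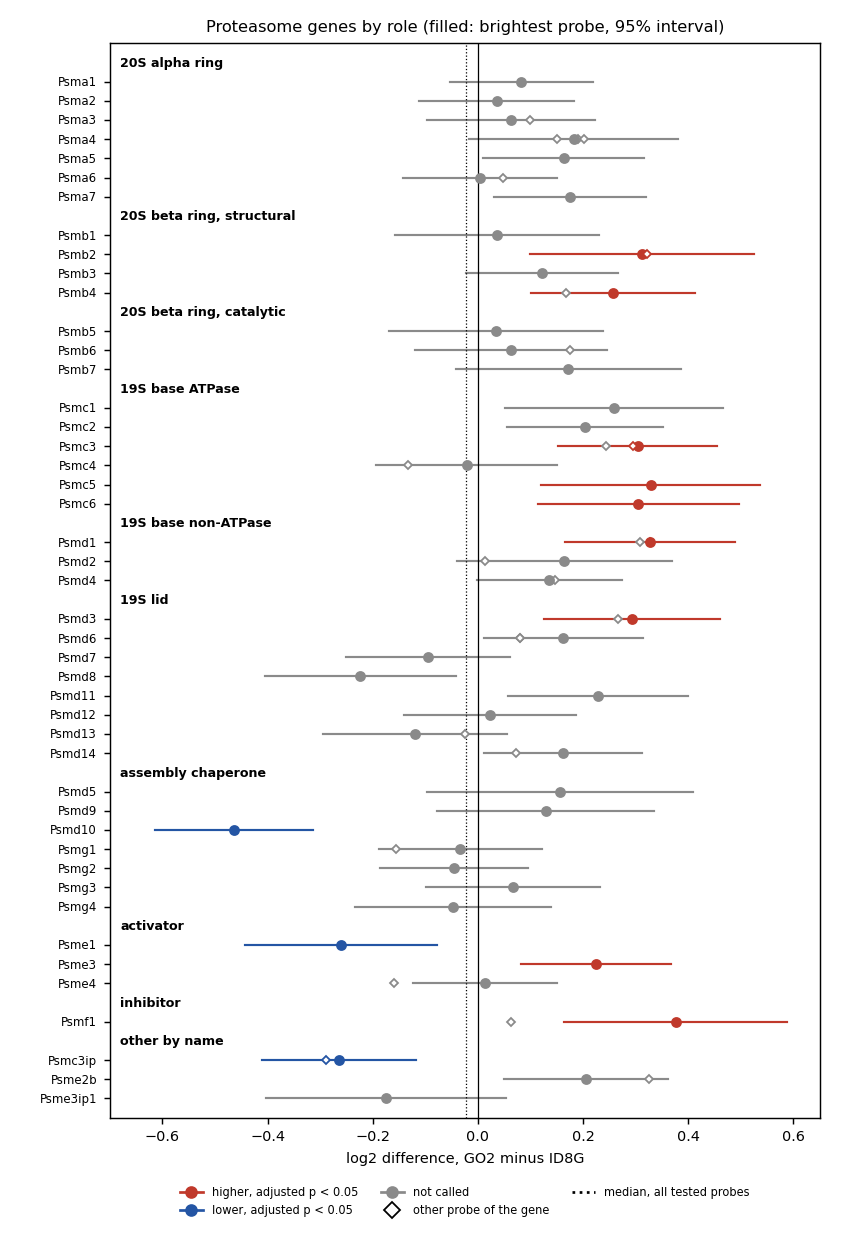
Log2 difference, GO2 minus ID8G, of each tested proteasome gene, grouped by role, with the brightest probe as a filled point with its 95% interval and other probes of the gene as open diamonds. Red and blue mark adjusted p below 0.05 and the dotted line is the median of all tested probes. Most points of the 20S and 19S groups lie to its right, but 15 of these 51 probes are above 0 once the arrays are scaled to the spike-ins. Psma8, at -3.27, is outside the axis and is left out with the untested Psmb11.

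The 19S base carried the largest positive values of the 20S and 19S subunits. Its ATPases unfold the substrate and feed it into the core, and 8 of their 9 probes lay above the median of all tested probes, with a median log2 difference of 0.26, or 0.05 under spike-in scaling. Psmc3 had the brightest of these probes, at 7.33 and 7.27 in ID8G cells and 7.61 and 7.60 in GO2 cells. Its 3 probes gave 0.30 (adjusted p = 0.0203), 0.30 (adjusted p = 0.0374) and 0.24 (adjusted p = 0.0642). Psmc5 read 4.76 and 4.74 in ID8G cells and 5.16 and 5.00 in GO2 cells, a log2 difference of 0.33 (95% interval 0.12 to 0.54, adjusted p = 0.0366). Psmc6 read 5.86 and 5.75 in ID8G cells and 6.15 and 6.07 in GO2 cells, and rose by 0.30 (adjusted p = 0.0361). For these 3 genes the lines did not overlap. Psmc1 and Psmc2 had values of 0.26 and 0.20 that did not pass, at adjusted p-values of 0.0639 and 0.0508. Psmc4 stood apart from the other ATPases. Its brightest probe read 4.95 and 4.84 in ID8G cells and 4.89 and 4.86 in GO2 cells, the arrays overlapped, and its other probe gave -0.13, also without a call.

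Among the scaffold and receptor subunits of the base, Psmd1 had the largest values. Its 3 probes gave log2 differences of 0.31 to 0.33, and 2 of them rose. The brightest read 5.87 and 5.79 in ID8G cells against 6.18 and 6.13 in GO2 cells (adjusted p = 0.0203). The dimmest probe, at 0.31, missed the threshold (adjusted p = 0.0522). Psmd4, a receptor for ubiquitin chains, read 6.26 and 6.23 in ID8G cells and 6.38 in both GO2 arrays, and its log2 difference of 0.14 did not pass (adjusted p = 0.107). Psmd2 gave 0.16 and 0.01 by its 2 probes.

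The lid held values on both sides of 0. Of its 13 probes, 9 lay above the median of all tested probes and 1 passed the test. Psmd3 read 6.81 and 6.84 in ID8G cells and 7.07 and 7.17 in GO2 cells, a log2 difference of 0.29 (adjusted p = 0.0286), and its dimmer probe gave 0.27 (adjusted p = 0.0878). At the other end, Psmd8 read 3.49 and 3.37 in ID8G cells and 3.22 and 3.20 in GO2 cells, and its log2 difference of -0.22 did not pass (adjusted p = 0.0652). Both GO2 arrays also lay below both ID8G arrays for Psmd7, at -0.09, and for the brighter probe of Psmd13, at -0.12. Psmd14, the deubiquitinase of the lid, gave 0.16 and 0.07, and Psmd11 gave 0.23 (adjusted p = 0.0551). The difference between the lid and the base was not tested.

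Proteasome genes are known to be induced together by the transcription factor NRF1 through antioxidant response elements in their promoters, and the bases before their start sites were searched for such elements. RefSeq promoter windows (GRCm38.p6) were found for 39 of the 47 genes, with 42 windows, and Psma8, Psmb1, Psmb2, Psmb7, Psmc3, Psmd3, Psmd7 and Psmg2 were not analysed here. In the 250 bases before the start, the element core TGACNNNGC was found on either strand in 5 of 42 windows (11.9%), where 10.2% of all 32851 windows held it. The CCAAT box was found in 35.7% of the member windows and in 33.8% of all windows, and the AP-1 motif TGANTCA in 2.4% and 6.7%. These shares were close to those of all promoters for the first of these motifs and for CCAAT, and a match of letters does not show a site. The median GC content was 57.6% in the member windows and 52.4% in all windows, and the shares were not matched for it. Psmb2, Psmc3 and Psmd3, which rose, are among the genes without a window. The 5 matches to TGACNNNGC are shown because they are the stretches on which this comparison rests, with the matched bases in capitals and the strand turned so that the motif reads from 5′ to 3′.
Psmb5, chr14:54618022-54618054, minus strand: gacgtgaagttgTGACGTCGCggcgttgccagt
Psmb6, chr11:70525336-70525356, plus strand: gactaaagagagTGACGGAGC
Psmc6, chr14:45329585-45329617, minus strand: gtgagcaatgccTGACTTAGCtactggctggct
Psmd9, chr5:123228147-123228179, plus strand: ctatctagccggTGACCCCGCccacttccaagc
Psmd12, chr11:107479278-107479301, minus strand: ggggggcaaatgTGACACAGCaga
None of the 5 matches overlapped a match to TGANTCA. Of the 5 genes, Psmc6 rose. Psmb5, Psmb6, Psmd9 and Psmd12 did not pass the test, with log2 differences of 0.03, 0.06, 0.13 and 0.02 by their brightest probes.

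Genes that assemble the proteasome or act on it from outside had values on both sides of 0. Psmd10, also known as gankyrin, a chaperone of the 19S base that binds the retinoblastoma protein, had the lowest adjusted p among the probes measured in both lines. It read 3.99 and 3.96 in ID8G cells and 3.54 and 3.48 in GO2 cells. The mean was 3.98 ± 0.03 (SD, n = 2) in ID8G cells and 3.51 ± 0.04 in GO2 cells, the log2 difference was -0.46 (95% interval -0.61 to -0.31, adjusted p = 0.00716), and it was called lower in each of the 4 fits that left out an array. Psmd5 and Psmd9, the other chaperones of the base, gave 0.16 and 0.13 and did not pass. The chaperones of the alpha ring, Psmg1 to Psmg4, gave values of -0.16 to 0.07 without a call, and the brighter Psmg1 probe read 4.89 and 4.91 in ID8G cells and 4.91 and 4.83 in GO2 cells.

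The activators lay on both sides of 0, and the differences between them were not tested. Psme1, a subunit of the interferon-inducible cap that widens the range of peptides released by the core, read 4.62 and 4.51 in ID8G cells and 4.33 and 4.28 in GO2 cells, and fell by 0.26 on the log2 scale (adjusted p = 0.0467), a call lost under normexp, quantile normalization, with no filter on dim probes, by the methods' t-test and in each fit without 1 array. Psme3, the nuclear relative of this cap, read 2.14 and 2.15 in ID8G cells and 2.39 and 2.34 in GO2 cells, and rose by 0.22 (adjusted p = 0.0375), a call lost under spike-in scaling, median centring, with no filter on dim probes, by the methods' t-test and in each fit without 1 array. Psme4, which caps the core in DNA repair and in the testis, read 4.60 and 4.59 in ID8G cells and 4.60 and 4.62 in GO2 cells, and its 2 probes gave 0.01 and -0.16 without a call. Psmf1, named as an inhibitor of the core, was the gene whose probes differed most. The brighter read 0.83 and 0.76 in ID8G cells and 1.25 and 1.10 in GO2 cells and rose by 0.38 (adjusted p = 0.0276), and the dimmer, at 0.14 and 0.05 against 0.15 and 0.17, gave 0.06.

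**Figure D3:**
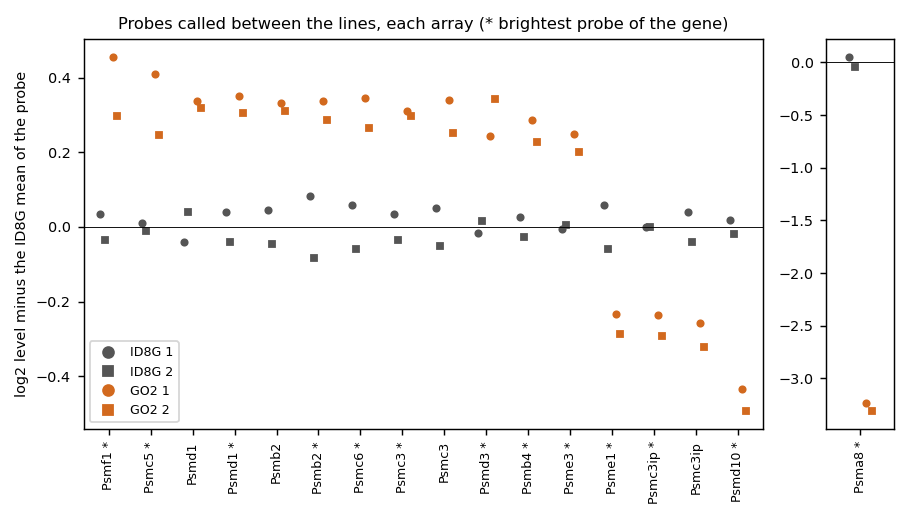
Level on each array minus the ID8G mean of the same probe, for the 17 proteasome probes with an adjusted p below 0.05 (12 higher, 5 lower), on the log2 scale with grey for ID8G, orange for GO2, circles for the first and squares for the second array. Psma8 has an axis of its own at the right; the 2 arrays of a line lie at most 0.16 apart at every probe, none of the 12 probes with higher values was called higher under spike-in scaling, and the 5 lower ones were called lower there too.

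By its fitted value, Psma8 was the single proteasome probe past the 2-fold rule, where 3.34% of all tested probes were called at least 2-fold lower and 4.5% at least 2-fold higher. This alpha subunit replaces Psma7 in the proteasome of male germ cells. The probe A_51_P213666 read -2.82 and -2.92 in ID8G cells and -6.11 and -6.18 in GO2 cells, and it was not well above background on either GO2 array. Only a bound can therefore be given, and the level was at least 1.91-fold lower in GO2 cells (adjusted p = 0.000196), a bound that does not reach 2-fold. The second Psma8 probe, A_55_P2744022, was well above background on the first GO2 array alone, with levels of -5.69 and -5.97 in ID8G cells and -2.85 and -5.94 in GO2 cells, and was not tested. The 2 probes thus gave no common pattern, and the adjusted p of the first rests on GO2 signal not above background in a probe that passed the filter through ID8G cells alone.

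Of the genes that share only the name, Psmc3ip, which acts in meiotic recombination, fell by both of its probes. The brighter read 4.30 on both ID8G arrays and 4.06 and 4.01 in GO2 cells, with a log2 difference of -0.26 (adjusted p = 0.0263), and the other gave -0.29 (adjusted p = 0.0293). Psme3ip1, a partner of Psme3, gave -0.17 and did not pass. The 2 probes on the accession of Psme2b gave 0.21 and 0.33 without a call, at adjusted p-values of 0.0565 and 0.0618. Psme2b is a retrocopy of Psme2, the partner of Psme1, and signal from these near-identical transcripts cannot be told apart. For 20 genes with several tested probes, all probes lay on one side of 0 for 19, and no gene had probes called in opposite directions. The spread of the log2 difference between probes of a gene had a median of 0.09 and was at most 0.31, for Psmf1.

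The 3 inducible subunits, which replace the catalytic subunits in the immunoproteasome, were set beside the constitutive ones. Psmb8 read -3.48 and -4.24 in ID8G cells, where it was not well above background, and 0.05 and -0.19 in GO2 cells, at least 12-fold higher (adjusted p = 0.00222). This probe passed the filter through GO2 cells alone, and its adjusted p rests on ID8G signal not above background. Psmb9 read -2.49 and -2.48 in ID8G cells and -1.51 and -1.56 in GO2 cells, a log2 difference of 0.95 (adjusted p = 0.00106). Psmb10 read 4.97 and 4.99 in ID8G cells and 5.15 and 5.05 in GO2 cells and did not pass (log2 difference 0.12, adjusted p = 0.189). The constitutive subunits whose places they take had values of 0.03 for Psmb5, 0.06 and 0.18 for Psmb6, and 0.17 for Psmb7, without a call.

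Genes around the proteasome were taken from lists chosen by known role. Earlier results of these data were known at that point, so the counts describe these lists only. Of 11 partners outside the naming series, 6 rose and none fell by their brightest probe, where 17% of all tested probes rose and 18.9% fell. At an unadjusted p below 0.05, 1 partner had a lower value, the deubiquitinase Usp14 (-0.16, adjusted p = 0.0748). Akirin2, which carries proteasomes into the nucleus, read 2.51 and 2.67 in ID8G cells and 3.11 and 3.07 in GO2 cells, a log2 difference of 0.50 (adjusted p = 0.0131). Zfand2a, a stress-induced partner of the 19S particle, rose by 0.40 (adjusted p = 0.0125), and Pomp, which matures the 20S core, by 0.22 (adjusted p = 0.042). Adrm1, a ubiquitin receptor of the base, rose by 0.22 (adjusted p = 0.0409), and Zfand5 by 0.23 (adjusted p = 0.0323), whereas its dimmer probes gave -0.02 and -0.01 and another was not above background. Another ubiquitin-chain enzyme of the particle, Uchl5, gave -0.18 and did not pass.

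In the route that activates NRF1, the factor released from the endoplasmic reticulum that induces proteasome genes, 4 of 9 genes rose and 3 fell. The shares over all tested probes were 17% higher and 18.9% lower. Nfe2l1, which encodes NRF1, read 3.63 and 3.76 in ID8G cells and 3.73 and 3.77 in GO2 cells by its brightest probe. The arrays overlapped, and the log2 difference was 0.06 (95% interval -0.13 to 0.24). Its dimmer probe gave -0.13 without a call (adjusted p = 0.135), with both GO2 arrays below both ID8G arrays. The genes that rose process the NRF1 protein. Syvn1, the ubiquitin ligase that turns it over, rose by 0.48 (adjusted p = 0.00993), Ngly1, which removes its sugars, by 0.37 (adjusted p = 0.0124), Ddi2, the protease that cleaves it, by 0.36 (adjusted p = 0.0212), and Vcp, the ATPase that extracts it from the membrane, by 0.34 (adjusted p = 0.012). Those that fell were Nfe2l2, which encodes the related factor NRF2, at -0.31 (adjusted p = 0.0307), and the small Maf partners Mafk, at -0.26 (adjusted p = 0.036), and Maff, at -0.96 (adjusted p = 0.00165). Maff had the largest value of this list, at 1.72 and 1.76 in ID8G cells and 0.72 and 0.83 in GO2 cells.

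Among 10 genes of ubiquitin and its shuttles, 3 rose and none fell by their brightest probe in limma, where 17% of all tested probes rose and 18.9% fell. At an unadjusted p below 0.05, Ubqln2 had a lower value (-0.24, adjusted p = 0.0595). Sqstm1, the autophagy receptor for ubiquitinated cargo, read 5.51 and 5.54 in ID8G cells and 6.08 and 6.03 in GO2 cells, a log2 difference of 0.53 (adjusted p = 0.00484), and its other probe gave 0.53 as well. The lines did not overlap. Rad23b, which ferries ubiquitinated proteins to the proteasome, rose by 0.32 (adjusted p = 0.0361) by its brightest probe, whereas its dimmer probes gave 0.13 and -0.05 without a call. Nploc4, a cofactor of Vcp, rose by 0.28 (adjusted p = 0.0229). The polyubiquitin gene Ubb gave 0.03 without a call. Probes disagreed also for Uba1, the ubiquitin-activating enzyme, where a dim probe rose by 0.21 (adjusted p = 0.043) and the brightest gave -0.01.

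**Figure D4:**
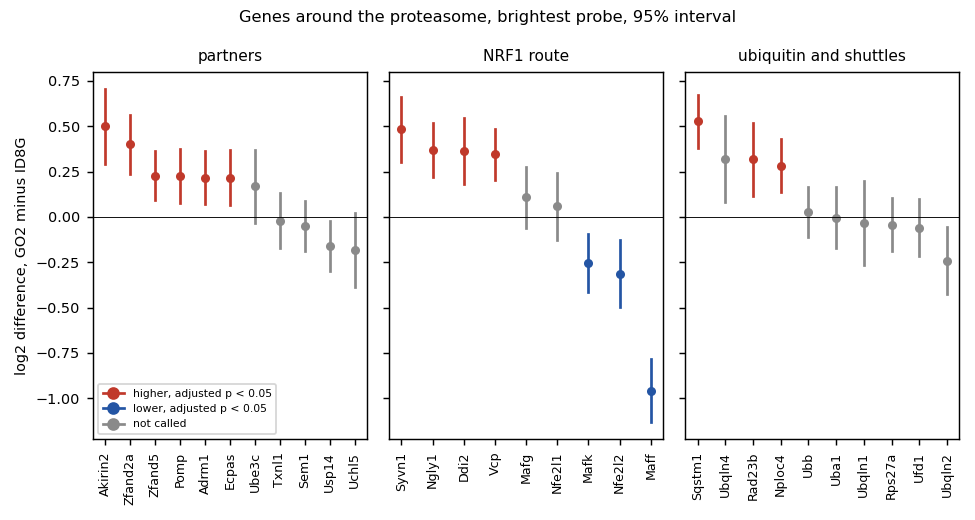
Log2 difference, GO2 minus ID8G, with its 95% interval, for the brightest probe of each tested gene among proteasome partners, the NRF1 route, and ubiquitin with its shuttles. Red marks genes that rose and blue those that fell at an adjusted p below 0.05, and 13 genes are red and 3 blue. Of all tested probes, 17% rose and 18.9% fell. Under spike-in scaling 2 of the 33 related genes, the inducible subunits included, rose and 6 fell, against 8.59% and 33.6% of all tested probes.

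Fewer probes were called when single arrays were left out, over the proteasome and over the array as a whole, where 9.98% to 11.2% of all tested probes were called higher in the 4 fits. Without the first GO2 array none of the 71 proteasome probes was called higher, and 8 were at an unadjusted p below 0.05. Without the first or the second ID8G array 1 was called higher, and without the second GO2 array 3 were. Of the 33 related genes tested, where 15 rose with all arrays, 6 did so without the first and 8 without the second ID8G array, and 4 without the first and 5 without the second GO2 array. Calls of lower values also became fewer in these fits, among the proteasome probes and among all tested probes. The medians moved less, and the median log2 difference over the proteasome probes was 0.09 to 0.16 in the 4 fits, where that over all tested probes was -0.03 to -0.02.

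**Figure D5:**
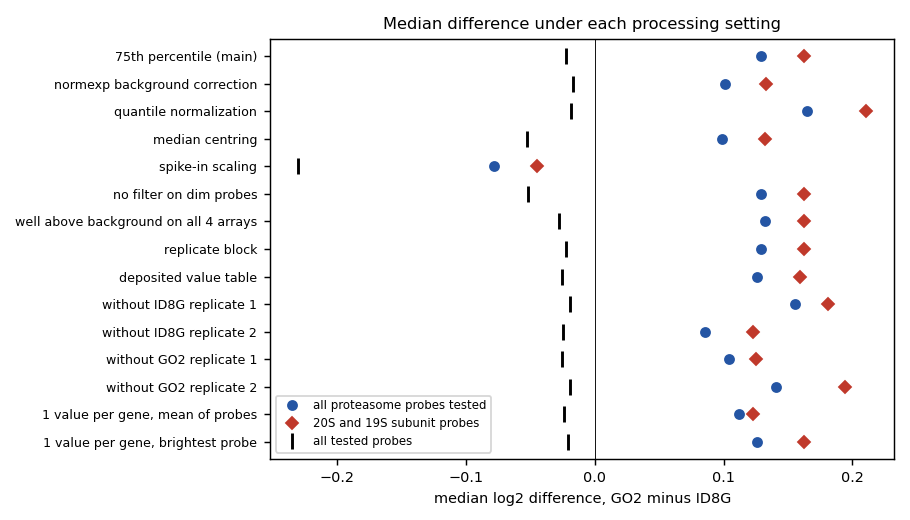
Median log2 difference, GO2 minus ID8G, over all tested proteasome probes (blue circles), over 20S and 19S subunit probes (red diamonds) and over all tested probes (black bars), for each processing setting named at the left. The red and blue points lie to the right of the black bar in each setting, and to the left of 0 in spike-in scaling alone. Median centring, spike-in scaling and the replicate block could not move these points against the bar.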

How the data were processed

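Cy3-labeled cRNA of ID8G and GO2 cells was hybridized to SurePrint G3 Mouse GE 8 × 60 K arrays, 2 per line. The authors deposited each spot's intensity from Feature Extraction 11.5.1.1, already background-corrected but not yet scaled from array to array, together with the software's outlier and well-above-background flags. A deposited table holds log2 values that match log2 intensities scaled to the 75th percentile of the array and centered on the probe's median, to a median absolute gap of 0.00235. Its column medians were 0.10 and -0.05 for ID8G and 0.04 and -0.05 for GO2, its scale, centering and direction were read from this match, and it served for 1 alternative only. For the arrays the methods name GeneSpring and no test, and the methods' t-test is the one they give for comparisons of 2 groups in general.

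Levels are log2 intensities less the 75th percentile of the array (over 56605 non-control probes), without outlier spots. Probes with signal well above background on the 2 arrays of either line were fitted with limma 3.58.1 in R 4.3.3, with line as the only term, and Benjamini-Hochberg adjustment ran over all 28368 probes. A call needs an adjusted p below 0.05, and the rule of 2-fold also a log2 difference of at least 1. Where a line was not above background on both of its arrays, a bound is given against the lowest signal well above background on each array. With 2 arrays against 2, an exact permutation test cannot go below p = 0.333, and the number of arrays limits the precision. On simulated data with known differences, the fit returned unbiased estimates. Far fewer probes were changed there than the 35.9% called here, and none by as little as the median subunit. The share of differences called there thus does not carry over to these data. A missing call does not show equal levels.

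Symbols came from RefSeq accessions in a table for GRCm38.p6, which matched 32994 probes (58.3%). The arrays were designed on mm9, and the only coordinates given are those of the RefSeq promoter windows. Windows were searched over the 250 bases before the start, on both strands, and the 50 bases after it were left out. Figures were drawn with matplotlib 3.10.9.

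The members, the role groups and the lists of related genes and markers were chosen with earlier results of these data known. Named in full are, in each role, the genes with the highest level, the largest increase and the largest decrease by the brightest probe, and probes past the 2-fold rule. Of related genes, those called are named, at most 5 in a list, with the inducible subunits. Some genes of the ubiquitin list are not reported here and are not in its counts. Other genes are given for their role or were chosen after their values were seen.

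Alternatives tried were normexp with an offset of 50 on the median pixel (the mean pixel was not used here), quantile normalization, median centring, scaling to 7 spike-ins, other filters on dim probes, an intensity trend, a replicate block, the methods' t-test, the deposited table, outliers kept, 1 value per gene, an adjusted p below 0.01, and each array left out.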

Additional observations from a re-analysis of the deposited data

How the results depend on the processing

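The median log2 difference of the proteasome probes, 0.13, stayed above 0 in each setting except spike-in scaling, where it was -0.079 and where the median of all tested probes was -0.23. The 7 spike-ins themselves differed by 0.15 to 0.28 between the lines. The number of proteasome probes called higher, 12, was 26 with quantile normalization, 20 with the filter on all 4 arrays, 35 with an intensity trend, 7 with the mean of a gene's probes, 5 by the methods' t-test without adjustment, and 0 with spike-in scaling, no filter on dim probes, an adjusted p below 0.01 or the adjusted t-test. Of all tested probes, where 17% were called higher, these settings called 17.3%, 17%, 21.2%, 17%, 11.9%, 8.59%, 3.57%, 8% and 0% higher in that order. At an unadjusted p below 0.05 these were 0 with spike-in scaling and 13 with no filter. The number called lower, 5, was 9 with spike-in scaling, 1 with no filter, 3 by the unadjusted t-test, 2 at an adjusted p below 0.01, and 0 by the adjusted t-test, against 33.6%, 3.37%, 12.7%, 8.01% and 0.0106% of all tested probes, where it was 18.9%. The probe past the 2-fold rule, of Psma8, was left out by the filter on all 4 arrays (0 probes) and not called by the adjusted t-test (0). Of the 33 related genes, 15 were called higher and 3 lower, against 17% and 18.9% of all tested probes. With spike-in scaling these counts were 2 and 6, with no filter 2 and 1, at an adjusted p below 0.01 4 and 1, and by the adjusted t-test 0 and 0. The related genes called lower were 5 with normexp, 6 with an intensity trend, and 5 by the unadjusted t-test. The shares of all tested probes called lower were 18.4%, 24.1% and 12.7% in that order. With 1 array left out, fewer proteasome probes and related genes were called in either direction, as were fewer of all tested probes. The median log2 difference of the proteasome probes was 0.085 to 0.16 in these fits. The fits without an array assume that the lone array varies like those of the other line. The cause of these changes was not tested.

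Signs of small uncalled differences turned in some settings. Under spike-in scaling, the log2 difference was -0.17 for Psma2, -0.025 for Psma4, -0.20 for Psma6, -0.17 for Psmb1, -0.085 for Psmb3, -0.17 for Psmb5, -0.14 for Psmb6, -0.035 for Psmb7, -0.072 for Psmd4, -0.051 for Psmd5, -0.19 for Psme4, -0.0019 for Psme2b and -0.088 for Psmb10. Under normexp it was -0.021 for Psma6, -0.036 for Psmb5 and -0.041 for Psme4. Median centring gave -0.026 for Psma6 and -0.016 for Psme4, quantile normalization 0.022 for Psmc4 and 0.0062 for Psmg1, and the mean of a gene's probes -0.073 for Psme4. With 1 array left out, the values ran from -0.025 to 0.034 for Psma6, -0.019 to 0.092 for Psmb1, -0.026 to 0.094 for Psmb5, -0.074 to 0.032 for Psmc4 and -0.072 to 0.0050 for Psmg1.

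The labels number the arrays of both lines, and the deviations of same-numbered arrays were not correlated across probes (r = 0.03 over all tested probes and -0.01 over the proteasome probes). This correlation does not see a shift that the probes share, and over the proteasome probes the first array read higher than the second by a median of 0.06 in both lines. With the replicate block, 10 proteasome probes were called higher and 3 lower, with the calls of Psme1 and Psme3 among those lost. Of the 33 related genes, 9 were called higher and 2 lower. Of all tested probes, 14.1% were called higher and 15.6% lower in this fit. The slide as a block was not run because there is 1 slide.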
